A study of Mus musculus with 16 samples.

Results

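Sox2, Nkx2-1, Foxa1, Foxa2, Elf3, Ehf, Grhl1, Grhl2, Klf4 and Klf5 are 10 genes for transcription factors that set and hold airway epithelial identity. They were taken by symbol from the 49315 gene identifiers of the count table, and all 10 were among the 15993 genes that passed the filter on low counts and were tested. The cells were MTECs, primary tracheal epithelial cells of the mouse grown to differentiation with air above and medium below. They came from male (M) and female (F) animals, WT or KO for LMAN1, a lectin that cycles between the endoplasmic reticulum and the Golgi. The KO line was on a C57BL/6J background and was kept by breeding heterozygotes, so that WT and KO cultures came from littermates, and tracheas were pooled for culture. The age of the animals that gave the cultures was not given in the sources used here. Cultures were left naive or were given house dust mite extract (HDM) at 20 µg/ml overnight. Each of the 8 groups (F WT, F KO, M WT and M KO, each naive or HDM) had 2 libraries labelled as biological replicates, 16 libraries in all. The comparisons ask whether the level of each factor differed with HDM, between the sexes and between the genotypes.

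SOX2 and NKX2-1 take part in patterning the embryonic foregut, and SOX2 stays on in the conducting airway. FOXA1 and FOXA2 are forkhead factors that open closed chromatin for other factors. ELF3 and EHF are ETS factors made mainly in epithelia, GRHL1 and GRHL2 are grainyhead-like factors that drive genes of cell junctions, and KLF4 and KLF5 are Krüppel-like factors tied to differentiation and proliferation.

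Libraries held between 21860698 and 43442188 counts. Replicates differed by more than sampling noise in all 8 groups, with a mean chi-square per gene of 4.94 to 49.0 where sampling alone gives 1. Levels are CPM, the share of a library's counts scaled by TMM, an edgeR factor for library size. Lman1, the targeted gene, stood at 121 ± 14.3 CPM in the 8 WT libraries (SD, n = 8). Of the 8 libraries labelled KO, 3 naive ones held 12.8 to 14.2 CPM, while M KO naive replicate 2 held 63.4 CPM and the 4 HDM ones 65.0 to 78.1 CPM, which is 52.6% to 64.8% of the WT mean. The labels KO below therefore name libraries, and each call that changes without M KO naive replicate 2 is given with its value. In F KO, both naive libraries held 10.6% of the WT mean, and the HDM ones 55.3% and 64.8%. HDM and Lman1 level thus cannot be told apart in the HDM change of F KO, or in responses compared with it. The 5 markers of airway epithelium (Epcam, Cdh1, Krt8, Krt18 and Cldn7) summed to 3125 to 7762 CPM.

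Of the 10 genes, 7 had an entry in the RefSeq table of promoters (GRCm38.p6), which spans 250 bases before to 50 after each start. The 150 bases before the most upstream annotated start are printed for the 3 genes of these that fell most in F WT MTECs with HDM (Elf3, Sox2 and Grhl1) and for Klf4, which was not called there. Capitals mark letters that match CCNCNCCC, a core that Krüppel-like factors bind, on either strand, where overlapping matches run together. The windows lie at chr1:135258569-135258718 (minus strand), chr3:34649845-34649994 (plus), chr12:24572133-24572282 (plus) and chr4:55532476-55532625 (minus), overlap no annotated exon, and are written 5′ to 3′.
Elf3: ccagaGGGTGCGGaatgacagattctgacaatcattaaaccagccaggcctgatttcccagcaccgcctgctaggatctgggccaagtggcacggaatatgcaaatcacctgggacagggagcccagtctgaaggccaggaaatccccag
Sox2: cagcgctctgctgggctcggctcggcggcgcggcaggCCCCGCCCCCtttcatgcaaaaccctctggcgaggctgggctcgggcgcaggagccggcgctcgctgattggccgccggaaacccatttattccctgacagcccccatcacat
Grhl1: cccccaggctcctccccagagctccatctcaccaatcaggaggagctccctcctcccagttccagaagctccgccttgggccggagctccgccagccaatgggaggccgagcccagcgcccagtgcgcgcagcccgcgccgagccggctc
Klf4: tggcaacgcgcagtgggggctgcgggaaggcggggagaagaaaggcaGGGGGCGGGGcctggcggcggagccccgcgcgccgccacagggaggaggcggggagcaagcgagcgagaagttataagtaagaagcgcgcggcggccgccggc
The Sox2 and Klf4 windows each held 2 overlapping matches, the Elf3 window 1 and the Grhl1 window 0. Among all 32851 promoters of the table, 38.1% held a match in the 150 bases before the start and 49.5% in the full window of 300 bases, where 6 of the 7 genes had one. The forkhead letters TGTTTAC were found in the full window of Foxa1 and of no other of the 7 genes, and in 3.65% of all promoters. Letters for SOX (AACAATG), NKX2-1 (TNAAGTG), ETS (CCGGAAG) and GRHL factors (AACCNGTT) were found in 0 of the 7 genes' full windows, and in 3.78%, 11.5%, 8.86% and 2.09% of all promoters. All letters were searched on both strands, and the Krüppel-like core overlaps GC boxes (GGGCGG). Matches are a description of these letters and were not tied to binding here.

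In naive MTECs the factors differed widely in level. Since longer transcripts collect more counts, levels of different genes are given as CPM, counts scaled to library size by TMM, divided by exon length in kilobases. Elf3 was highest, at 228 ± 23.8 CPM per kb (SD, n = 8 naive libraries), and its lowest library lay above the highest of Sox2. Sox2 (124 ± 10.8), Ehf (117 ± 15.8) and Foxa1 (85.2 ± 7.16 CPM per kb) followed, and the ranges of neighbours in this order overlapped. Klf5 stood at 62.7 ± 5.93 and Nkx2-1 at 48.9 ± 5.13 CPM per kb, again with overlapping ranges. Klf4 (25.7 ± 3.75) and Grhl2 (20.6 ± 0.915 CPM per kb) overlapped as well. Grhl1 at 4.53 ± 0.385 and Foxa2 at 1.96 ± 0.291 CPM per kb were lowest, each with a range apart from its neighbours. Within each pair of relatives 1 member was thus the more abundant per kb in every naive library, Foxa1 over Foxa2, Elf3 over Ehf, Grhl2 over Grhl1 and Klf5 over Klf4.

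**Figure D1:**
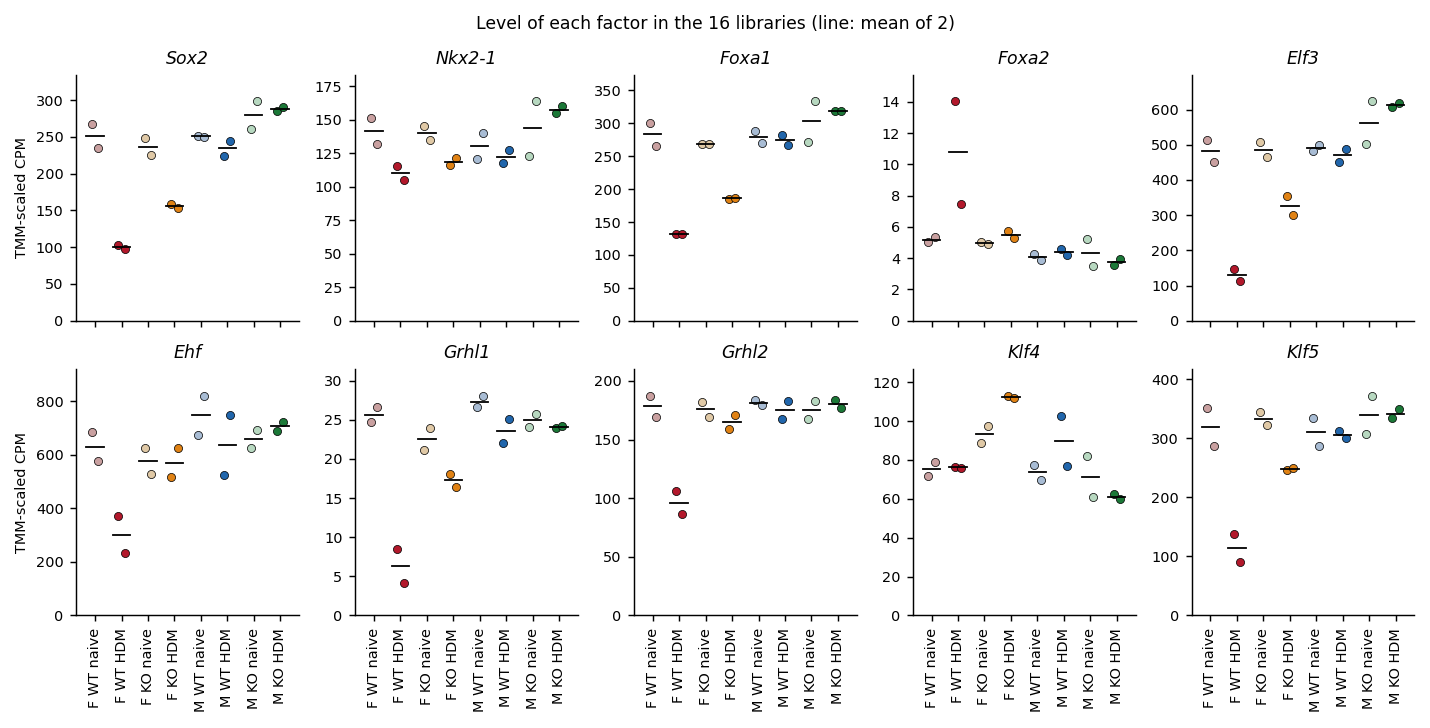
Level of each of the 10 factors (TMM-scaled CPM, axes from 0) in the 16 libraries, with a panel for each gene, points for libraries and a line for the mean of the 2 libraries of a group. The F WT HDM libraries lie below the other 14 for 8 genes and above them for Foxa2, and F KO HDM libraries are highest for Klf4.

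With HDM, 8 of the 10 factors fell in F WT MTECs, Foxa2 rose, and Klf4 was not called. The 9 calls (edgeR's quasi-likelihood test, adjusted p under 0.05 over all tested genes) stand against a background of 43.1% of tested genes called in this comparison, 22.4% lower and 20.6% higher. The median log2 fold change of the 10 genes was -1.08, and that of all tested genes -0.02. In bulk cultures fewer cells of a type and less RNA per cell cannot be told apart. For the 8 genes that fell, both F WT HDM libraries lay below all 14 others, as they did for 20.2% of all tested genes.

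Sox2 (ENSMUSG00000074637, chromosome 3, 34650405 to 34652461 of GRCm38, plus strand) is coded by a single exon. It stood at 267 and 235 CPM in F WT naive and at 103 and 96.9 CPM in F WT HDM libraries. In F KO libraries it read 248 and 225 CPM naive and 159 and 154 CPM with HDM. Male libraries held 251 ± 0.841 CPM (SD, n = 2, M WT naive), 224 and 245 (M WT HDM), 261 and 299 (M KO naive) and 285 and 290.4 CPM (M KO HDM). The 2 F WT HDM libraries were lowest, the 2 F KO HDM libraries came next without overlap, and all others lay above both. The log2 fold change with HDM was -1.33 in F WT (SE 0.091, adjusted p = 1.17e-06), which is 2.51-fold lower.

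Nkx2-1 (ENSMUSG00000001496, chromosome 12, 56531958 to 56536908, minus strand) fell least of the 8. F WT libraries held 152 and 132 CPM naive and 115 and 105 CPM with HDM, and the 12 libraries outside the female HDM groups ranged from 118 to 164 CPM. Its log2 fold change in F WT was -0.36 (SE 0.13, adjusted p = 0.0359 by edgeR). The call was lost without F WT naive replicate 1 (-0.26), without F WT HDM replicate 1 (-0.41) and without F WT HDM replicate 2 (-0.29).

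Foxa1 (ENSMUSG00000035451, chromosome 12, 57540628 to 57546916, minus strand) fell and its relative Foxa2 (ENSMUSG00000037025, chromosome 2, 148042877 to 148046969, minus strand) rose. Foxa1 read 301 and 265 CPM in F WT naive and 132 and 132 CPM in F WT HDM libraries. F KO libraries held 269 and 269 CPM naive and 185 and 187 CPM with HDM. The replicates of the female HDM groups were close to each other and far from the naive ones, and the 8 male libraries, at 267 to 334 CPM, lay above every female HDM library. The log2 fold change of Foxa1 was -1.10 in F WT (SE 0.095, adjusted p = 6.27e-06). Foxa2 stood at 5.01 and 5.37 CPM in F WT naive and at 14.1 and 7.48 CPM in F WT HDM libraries, whereas the other 14 libraries ranged from 3.47 to 5.77 CPM. Both F WT HDM libraries were above all others, but they differed from each other by more than any other pair. The log2 fold change of Foxa2 was 1.05 (SE 0.26, adjusted p = 0.00698) and was no longer called without F WT HDM replicate 1 (0.54, adjusted p = 0.0825), while without replicate 2 it was 1.44.

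The ETS factors fell as well. Elf3 (ENSMUSG00000003051, chromosome 1, 135253575 to 135258568, minus strand) read 512 and 449.8 CPM in F WT naive and 146 and 114 CPM in F WT HDM libraries. In F KO libraries it stood at 507 and 466 CPM naive and 355 and 299 CPM with HDM. Male libraries held 482 and 499 CPM (M WT naive), 452 and 488 (M WT HDM), 501 and 625 (M KO naive) and 608 and 617 CPM (M KO HDM). The order was the same as for Sox2, F WT HDM below F KO HDM and both below the other 12 libraries. Its log2 fold change of -1.89 in F WT (SE 0.14, adjusted p = 2.34e-06) is 3.70-fold lower. Ehf (ENSMUSG00000012350, chromosome 2, 103263433 to 103303278, minus strand) held 684 and 577 CPM in F WT naive and 370.3 and 234 CPM in F WT HDM libraries. Its F KO libraries, at 626 and 527 CPM naive and 516 and 624 CPM with HDM, overlapped. The log2 fold change of Ehf in F WT was -1.06 (SE 0.22, adjusted p = 0.00241).

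Grhl1 (ENSMUSG00000020656, chromosome 12, 24572283 to 24617391, plus strand) had the largest change of the 10 in F WT MTECs. It stood at 24.7 and 26.6 CPM naive and at 8.53 and 4.12 CPM with HDM, a log2 fold change of -2.01 (SE 0.23, adjusted p = 4.47e-05). F KO HDM libraries held 18.1 and 16.4 CPM, under the 21.2 to 28.1 CPM of the 12 libraries outside the female HDM groups. Grhl2 (ENSMUSG00000022286, chromosome 15, 37233036 to 37363569, plus strand), needed for epithelial junctions in the embryo, read 187 and 169 CPM in F WT naive and 106 and 86.2 CPM in F WT HDM libraries. Its log2 fold change was -0.89 (SE 0.099, adjusted p = 3.71e-05), and its F KO HDM libraries (159 and 171 CPM) overlapped the other 12 (167 to 187 CPM). Gm16136, annotated antisense to Grhl2, shares 169 exon bases with it, and without a stated strand setting the reads of the pair cannot be told apart there. Of the other genes that overlap a factor, Sox2ot lies on the strand of Sox2 and Gm26973 antisense to Nkx2-1 with 0 shared exon bases, and Gm26642 shares 162 exon bases with Elf3 but held 16 to 42 counts a library. Gm16137 (2 to 9 counts) and Gm16138 (0 to 4) lie antisense to Grhl2. Gm16136 fell by 1.88 on the log2 scale in F WT (SE 0.096), from 62.2 and 54.1 to 16.3 and 15.2 CPM.

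The Krüppel-like factors parted. Klf5 (ENSMUSG00000005148, chromosome 14, 99298691 to 99315036, plus strand), which marks dividing and progenitor epithelium, held 352 and 286 CPM in F WT naive and 138 and 91.1 CPM in F WT HDM libraries. F KO libraries read 345 and 322 CPM naive and 246 and 249 CPM with HDM, and the 8 male libraries 287 to 372 CPM. The log2 fold change of Klf5 in F WT was -1.48 (SE 0.17, adjusted p = 5.03e-05). Klf4 (ENSMUSG00000003032, chromosome 4, 55527143 to 55532466, minus strand), a factor of terminal differentiation, stood at 71.9 and 79.2 CPM naive and 76.6 and 75.9 CPM with HDM in F WT. F KO libraries held 88.6 and 97.5 CPM naive and 113 and 112 CPM with HDM. Male libraries held 77.6 and 69.8 CPM (M WT naive), 103 and 76.8 (M WT HDM), 82.0 and 60.7 (M KO naive) and 62.4 and 59.7 CPM (M KO HDM). The F KO HDM libraries were thus the highest of the 16 and the F WT HDM libraries lay inside the range of their naive controls. Its log2 fold change in F WT was 0.01 (SE 0.14, adjusted p = 0.953).

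**Figure D2:**
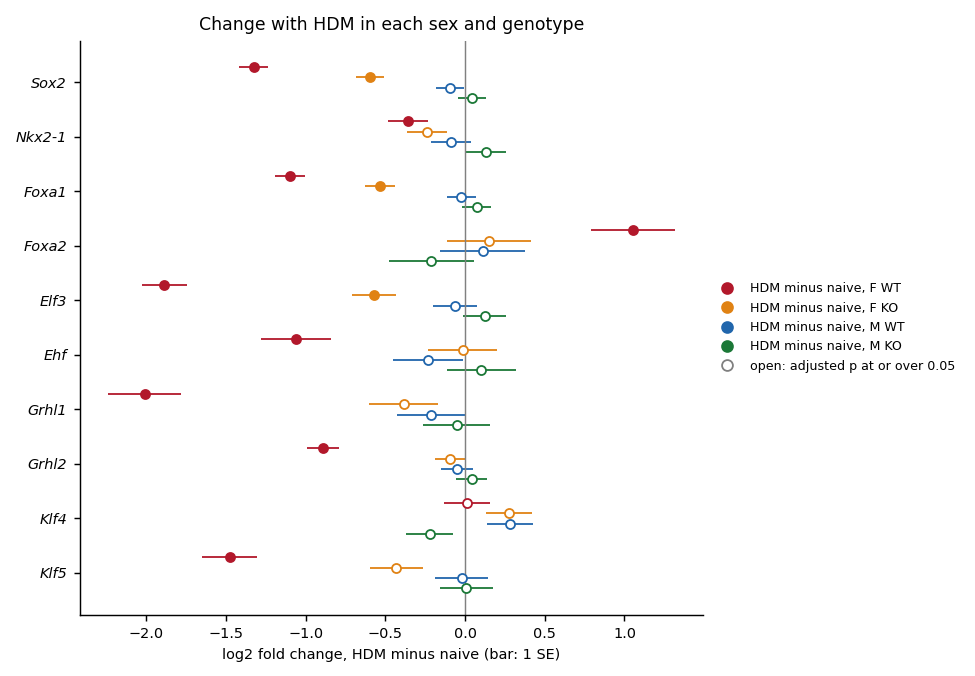
log2 fold change of HDM minus naive (horizontal axis, bars 1 SE) for each factor in F WT, F KO, M WT and M KO MTECs, with filled points for adjusted p under 0.05 and open points otherwise. In F WT 8 genes are filled on the left and Foxa2 on the right, in F KO 3 are filled, and in the male cultures 0.

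In F KO MTECs 3 of the 10 factors were called, all lower, where 10.4% of tested genes were called and 5.77% were lower. The log2 fold change was -0.60 for Sox2 (SE 0.089, adjusted p = 0.0024), -0.53 for Foxa1 (SE 0.094, adjusted p = 0.00496) and -0.57 for Elf3 (SE 0.14, adjusted p = 0.0222). The Elf3 call was lost without F KO naive replicate 1 (-0.51), F KO naive replicate 2 (-0.63) or F KO HDM replicate 2 (-0.46). Klf5 (-0.43), Grhl1 (-0.39) and Nkx2-1 (-0.24) had values below 0 that were not called, with adjusted p of 0.129, 0.284 and 0.254. Ehf at -0.02 (SE 0.22) and Grhl2 at -0.09 (SE 0.098) were close to 0, and Klf4 was at 0.27 (SE 0.14, adjusted p = 0.256). In F KO HDM libraries 5 factors (Sox2, Foxa1, Elf3, Grhl1 and Klf5) lay below all 12 libraries outside the female HDM groups, Klf4 lay above them, and 4 overlapped. Of all tested genes, 13.5% lay below and 11.5% above in the same way. When the fit held the F KO libraries alone, 6 factors were called, with Klf5, Grhl1 and Klf4 added, and 18.7% of all genes.

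In male MTECs edgeR called 0 of the 10 factors with HDM in WT and 0 in KO, where 0% of all tested genes were called in each. At an unadjusted p under 0.05 it found 0 of the 10 in M WT and 0 in M KO, against 665 and 857 of all genes, and DESeq2 called 0 of the 10 in both. The log2 fold changes ran from -0.23 (Ehf) to 0.28 (Klf4) in M WT, and from -0.22 (Klf4) to 0.13 (Nkx2-1) in M KO, with SE of 0.088 to 0.27. Of the 40 values of the 10 factors in the 4 male HDM libraries, 35 lay within the range of the 8 naive libraries. No share over all tested genes was computed for this count, which is a description only. In M WT, naive replicate 2 and HDM replicate 2 were nearest to each other over all genes, with a median chi-square per gene of 1.95. To their own replicates it was 3.97 and 5.04. M WT HDM replicate 1 was nearest to M KO naive replicate 1 (2.29), so the comparison in M WT is limited by the spread of replicates. M KO naive replicate 2 held more Sox2, Foxa1, Elf3 and Klf5 than replicate 1 of its group. Over all genes it was nearest to M KO HDM replicate 1, with a median chi-square per gene of 1.70 against 4.95 to its own replicate, so the comparison in M KO rests on a naive library that is close to an HDM library. Leaving it out gave 0 called factors in M KO.

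The difference between HDM responses was tested as an interaction. For the genotypes within females, the log2 fold change with HDM was higher in F KO than in F WT for 7 factors, where 11.2% of all genes were called and 6.16% were higher. These were Grhl1 (1.62, SE 0.31, adjusted p = 0.00942), Elf3 (1.31, SE 0.19), Klf5 (1.05, SE 0.24), Ehf (1.05, SE 0.31, adjusted p = 0.0499), Grhl2 (0.80, SE 0.14), Sox2 (0.73, SE 0.13) and Foxa1 (0.57, SE 0.13). Nkx2-1 (0.12, SE 0.18), Klf4 (0.26, SE 0.20) and Foxa2 (-0.90, SE 0.37, adjusted p = 0.135) were not called. Fewest factors were called without F WT naive replicate 1, F KO naive replicate 2 or F KO HDM replicate 2, where calls over all tested genes also fell. The Ehf call also ended under RLE scaling (adjusted p = 0.052), upper-quartile scaling (0.053) and the compared libraries alone (0.0544). Ehf was lost in 7 of 8 leave-outs (0.75 to 1.18), Foxa1 in 6 of 8 (0.47 to 0.57) and Klf5 in 4 of 8 (0.77 to 1.04). Within males, edgeR called 0 factors for this interaction, where 0% of genes were called, and DESeq2 called 0 factors. By edgeR 1 factor had an unadjusted p under 0.05, as did 8.68% of all genes.

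Between the sexes, the response was higher in M WT than in F WT for 6 factors, where 24.2% of all genes were called and 12.8% were higher. These were Elf3 (1.82, SE 0.19, adjusted p = 9.13e-05), Grhl1 (1.80, SE 0.31), Klf5 (1.46, SE 0.24), Sox2 (1.23, SE 0.13), Foxa1 (1.08, SE 0.13) and Grhl2 (0.84, SE 0.14). Among the rest were Ehf at 0.83 (SE 0.31, adjusted p = 0.0709) and Foxa2 at -0.94 (SE 0.37, adjusted p = 0.0877). In KO MTECs 2 factors were called, Sox2 (0.64, SE 0.13, adjusted p = 0.0203) and Foxa1 (0.60, SE 0.13, adjusted p = 0.0318), where 3.56% of genes were called and 1.77% were higher. Both calls were lost in most leave-outs, Sox2 in 6 of 8 (0.55 to 0.67) and Foxa1 in 7 of 8 (0.47 to 0.61). The values there stayed above 0. Each such fit leaves 1 library in a group, so the losses do not show that a particular library carried the calls. Without M KO naive replicate 2, Elf3 (0.86), Nkx2-1 (0.60) and Klf4 (-0.70) crossed the threshold as well, and calls over all tested genes also rose.

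In naive cultures no factor was called between the sexes. edgeR called 0 of 10 in WT, where 0.1% of genes were called, and 0 of 10 in KO, where 0.188% were called. At an unadjusted p under 0.05 there were 0 and 2 of the 10, against 12.3% and 9.91% of all genes, and DESeq2 called 0 in both. Between the genotypes edgeR likewise called 0 of 10 factors in naive F and 0 in naive M, where 0% of genes were called in each. DESeq2 called 0 of 10 in both. By edgeR 0 of the 10 had an unadjusted p under 0.05 in each, against 1.27% (F) and 5.42% (M) of all genes. The log2 differences in naive cultures ran from -0.38 (Klf4) to 0.30 (Klf4) over these 4 comparisons.

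With HDM the sexes and the genotypes differed, and the same F WT HDM libraries enter M minus F in WT and KO minus WT in F. In WT, 8 factors differed between the sexes, 7 of them higher in M (41.6% of genes were called, 21.3% higher and 20.3% lower). Grhl1 (1.89, SE 0.23) and Elf3 (1.85, SE 0.14) had the largest log2 differences, Klf5 (1.42), Sox2 (1.23), Ehf (1.07), Foxa1 (1.06) and Grhl2 (0.87) followed, and Foxa2 was lower in M (-1.29, SE 0.26, adjusted p = 0.00232). Without F WT HDM replicate 1 the difference of Foxa2 was -0.78 (adjusted p = 0.0461). Nkx2-1 (0.15, SE 0.13) and Klf4 (0.24, SE 0.14) were not called.

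In KO, 5 factors differed between the sexes with HDM, where 25.3% of genes were called, 12.9% higher and 12.4% lower in M. Elf3 (0.91, SE 0.14, adjusted p = 0.000844), Sox2 (0.88, SE 0.089), Foxa1 (0.78, SE 0.094) and Nkx2-1 (0.41, SE 0.12, adjusted p = 0.0337) were higher in M. Klf4 was lower in M (-0.88, SE 0.15, adjusted p = 0.00134), at 62.4 and 59.7 CPM against 113 and 112 CPM in F. The Nkx2-1 call was lost without any 1 of the 4 libraries of this comparison (0.38 to 0.44). When the fit held these 4 libraries alone, 9 factors were called, and 39.6% of all genes.

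Between the genotypes, 9 factors differed in F HDM cultures, 8 higher in KO and Foxa2 lower, where 29.2% of genes were called, 14.9% higher and 14.3% lower. The log2 difference was 1.44 for Grhl1 (SE 0.23, adjusted p = 0.00118), 1.33 for Elf3 (SE 0.14), 1.11 for Klf5 (SE 0.17), 0.92 for Ehf (SE 0.22), 0.78 for Grhl2 (SE 0.099), 0.64 for Sox2 (SE 0.090), 0.56 for Klf4 (SE 0.14) and 0.49 for Foxa1 (SE 0.094). Nkx2-1 (0.11, SE 0.13) was not called, and Foxa2 was at -0.97 (SE 0.26, adjusted p = 0.0175). Leaving out F WT HDM replicate 1 ended the Foxa2 call (-0.45), as did F KO HDM replicate 1 (-1.04) and replicate 2 (-0.90). The Ehf call ended without F WT HDM replicate 2 (0.62) or F KO HDM replicate 2 (0.77). The Klf4 call ended without F WT HDM replicate 2 (0.55), F KO HDM replicate 1 (0.55) or F KO HDM replicate 2 (0.57). In M HDM cultures edgeR called 0 of 10, where 0% of genes were called. There, 5 factors had an unadjusted p under 0.05, as did 18.1% of all genes, and DESeq2 called 1, Klf4 at -0.56 (adjusted p = 0.026), and 2.73% of all genes.

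**Figure D3:**
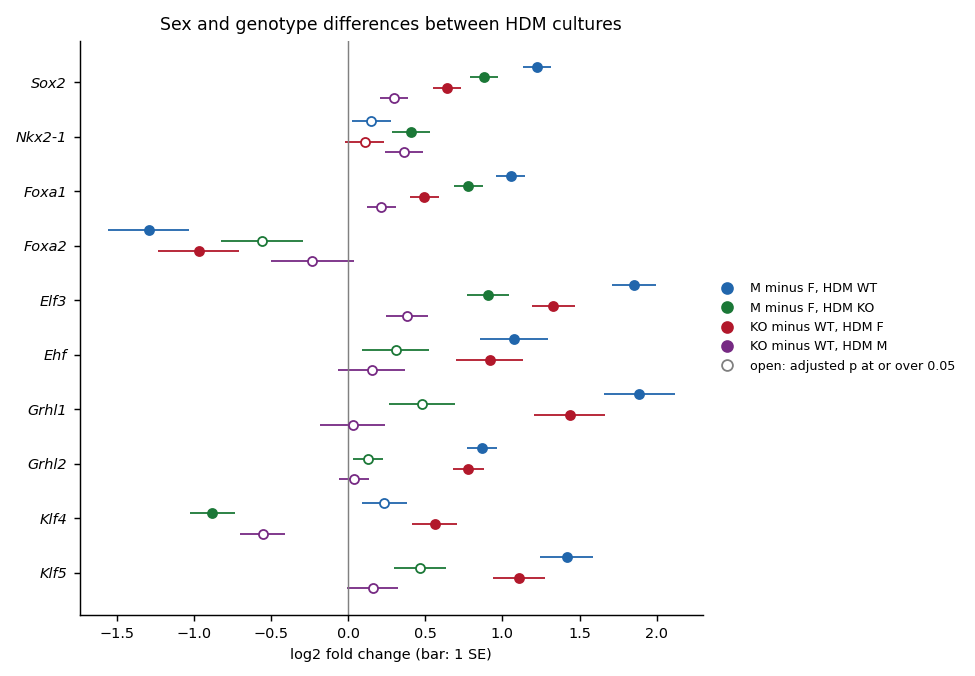
log2 differences between HDM cultures (horizontal axis, bars 1 SE) for each factor, M minus F in WT and in KO, and KO minus WT in F and in M, with filled points for adjusted p under 0.05. Klf4 is the 1 factor with a called value below 0 for M minus F in KO and above 0 for KO minus WT in F.

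Since relatives shared a library, their ratio within it does not depend on library scaling. The ratio of Klf4 to Klf5 in CPM per kb was 0.945 and 1.42 in F WT HDM, 0.785 and 0.768 in F KO HDM, and 0.278 to 0.561 in the other 12 libraries. Klf4 thus came level with Klf5 per kb in F WT HDM cultures and stayed under it elsewhere. The ratio of Foxa1 to Foxa2 was 6.68 and 12.6 in F WT HDM, 22.8 and 25.3 in F KO HDM, and 35.2 to 68.6 in the other 12. The ratio of Grhl1 to Grhl2 was 0.125 and 0.0743 in F WT HDM, 0.178 and 0.149 in F KO HDM, and 0.181 to 0.245 in the other 12. The ratio of Elf3 to Ehf overlapped between the female HDM groups, at 0.993 and 1.22 in F WT and 1.73 and 1.21 in F KO, and was 1.53 to 2.27 in the other 12. Against Nkx2-1, the factor that fell least, Foxa1 was 0.978 and 1.07 in F WT HDM and at least 1.32 in the other 14 libraries. These ratios are given as a description, with no test.

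**Figure D4:**
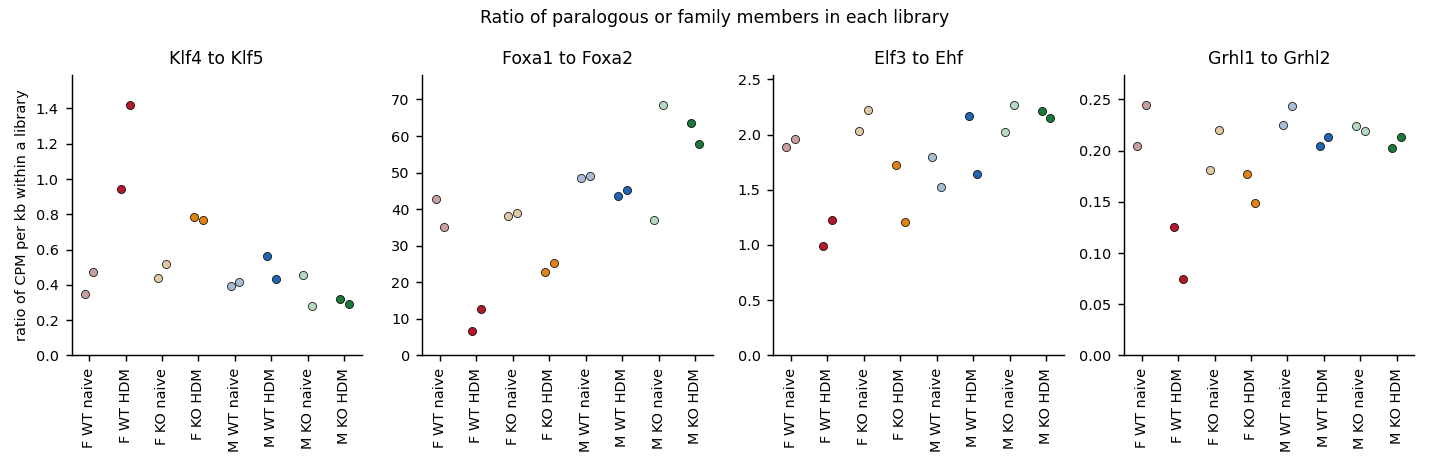
Ratio of CPM per kb within each library (vertical axes from 0) for Klf4 to Klf5, Foxa1 to Foxa2, Elf3 to Ehf and Grhl1 to Grhl2, with a point for each library. F WT HDM libraries are highest for Klf4 to Klf5 and lowest for Foxa1 to Foxa2 and Grhl1 to Grhl2, with F KO HDM libraries next in each.

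Across the 8 group means on the log2(CPM + 1) scale, 7 factors had patterns close to that of Sox2, with Pearson's r of 0.855 (Nkx2-1) to 0.998 (Foxa1). Foxa2 ran opposite (r = -0.938), and Klf4 stood apart from both (r = -0.384). Without F WT HDM, which is far from the other groups, r with Sox2 was 0.995 for Foxa1, 0.983 for Elf3 and 0.955 for Klf5, but 0.674 for Ehf. Klf4 then had r of -0.915 with Sox2 and -0.911 with Elf3 over 7 groups. The points are group means that share libraries, depth and scaling.

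**Figure D5:**
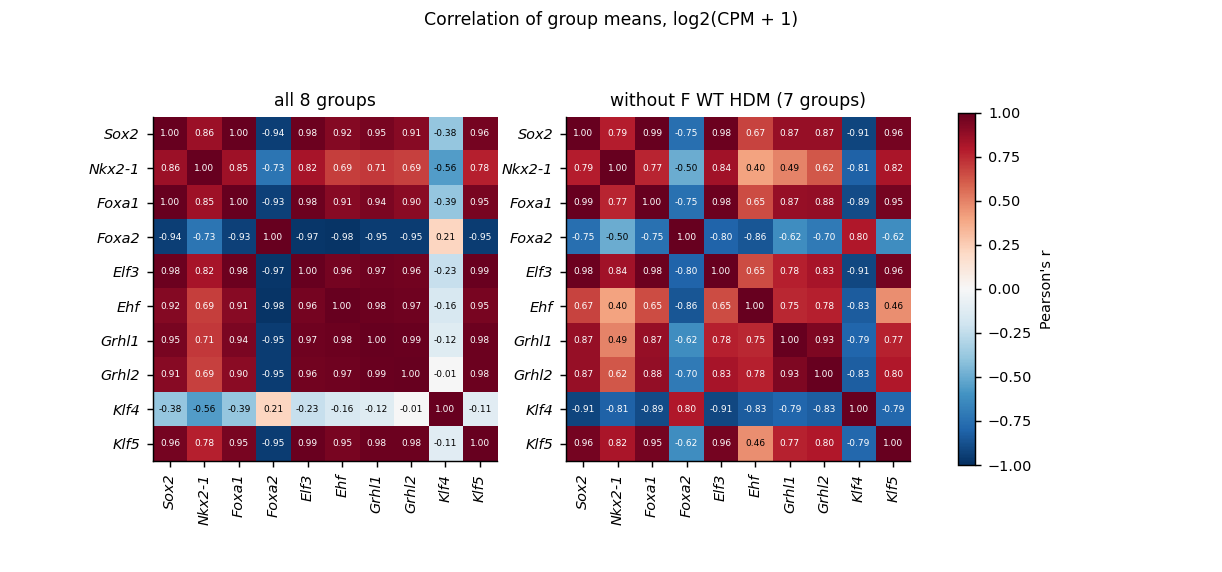
Pearson's r between the group means of each pair of factors on the log2(CPM + 1) scale, over all 8 groups on the left and without F WT HDM on the right. The row of Klf4 runs from -0.558 to 0.214 on the left and holds values of -0.786 or lower on the right, except 0.802 with Foxa2.

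Over the same 8 group means, Foxa1 and Gramd3 (both r = 0.998) were the tested genes most like Sox2, and Cyp2f2, a club cell cytochrome, and Prdx6 (both 0.999) those most like Foxa1. Kremen2 and Srsf5 (both 0.987) were closest to Nkx2-1, though Srsf5 was not called in F WT with HDM (-0.10, SE 0.089). Rprd1b and Mgat3 (both 0.998) were closest to Elf3, Fzd3 (0.996) and Wapl (0.994) to Ehf, Kif16b (0.997) and Erbb3 (0.996) to Grhl1, Pacs1 (0.997) and Arhgap32 (0.996) to Grhl2, and Gbf1 and Scel (both 0.997) to Klf5. Foxa2 was followed by Tmsb10 (0.997), which codes for a thymosin, and Adamts6 (0.994), both higher in F WT HDM (1.38, SE 0.18, and 2.05, SE 0.62). Klf4 was followed by the nuclear receptor Ppard and the G protein subunit Gna15 (both 0.970), neither of which was called in F WT with HDM (adjusted p = 0.99 and 0.307 by edgeR).

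Other transcription factors of airway epithelium moved in both directions. Of 24 listed, 12 fell and 5 rose in F WT with HDM (median log2 fold change -0.29), and 4 fell and 5 rose in F KO. In M WT 0 of 24 were called, where edgeR called no gene. Over all tested genes 22.4% fell and 20.6% rose in F WT, so the number that rose there was near the share of all genes. In F KO 10.4% of all tested genes were called, 5.77% lower. The 3 with the smallest p in F WT all fell. Elf5, another ETS factor, went from 15.2 and 11.8 to 0.583 and 0.521 CPM (-4.60, SE 0.29). Spdef, which drives goblet cells, was at -4.29 (SE 0.38), and Trp63, the factor of basal cells, at -2.06 (SE 0.20). In F KO the values were -2.58 for Elf5, -2.86 for Spdef and -0.13 for Trp63.

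Secretory genes associated with NKX2-1 and FOXA factors fell broadly. Of 18 listed, 17 were tested, and 15 fell and 0 rose in F WT with HDM (median log2 fold change -4.05). In F KO 10 fell and 0 rose (median -1.52), and 0 were called in M WT. Over all tested genes 22.4% fell in F WT, 5.77% fell in F KO and 0% were called in M WT. Muc1, a membrane mucin, went from 517 and 421 to 11.1 and 15.2 CPM in F WT (-5.16, SE 0.25). Agr2, a disulfide isomerase of mucin-making cells, was at -5.54 (SE 0.30) and Reg3g, a secreted lectin, at -5.92 (SE 0.34). In HDM cultures 14 of the 17 were higher and 0 lower in M than in F in WT, and 14 higher and 1 lower in KO, where 21.3% and 12.9% of all genes were higher.

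Barrier genes associated with the GRHL, ETS and Krüppel-like factors were split. Of 20 listed, all tested, 6 fell and 8 rose in F WT with HDM (median 0.12), and 2 fell and 2 rose in F KO. Over all genes 22.4% fell and 20.6% rose in F WT, and 10.4% were called in F KO. The splicing factor Esrp2 (-0.77, SE 0.087) and the junction gene Tjp3 (-1.03, SE 0.12) fell, and the keratin gene Krt18 rose (1.37, SE 0.17), from 662 and 830.0 to 1815 and 2047 CPM.

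Markers of cell types moved in the same libraries. In F WT with HDM, 5 of 6 basal markers, 4 of 4 club markers and 4 of 4 goblet markers fell, and 4 of 5 markers of airway epithelium rose. Over all tested genes 22.4% fell and 20.6% rose in this comparison. Of the ciliated markers 2 of 6 fell, which is not far from that share. In F KO with HDM, 4 of 4 goblet, 2 of 4 club, 1 of 6 basal and 0 of 6 ciliated markers fell. There 2 of 5 markers of airway epithelium rose. Of all tested genes 10.4% were called in F KO, and 5.77% were lower. Summed basal markers were 1971 to 3978 CPM in F WT HDM and 6512 to 12764 in the other 14 libraries. Club markers were 3759 to 4650 against 7213 to 19481 CPM, nearly all from Cyp2f2 (3754 to 18918 CPM over all libraries). Goblet markers were 3.70 to 4.03 against 12.3 to 211 CPM. The F KO HDM libraries held 12.3 to 13.1 CPM of goblet markers, against 115 to 149 CPM in F KO naive. Their club markers were 7213 to 7867 CPM, against 13059 to 15701 CPM in F KO naive. Squamous markers were 166 to 367 CPM in F WT HDM and highest in F KO HDM, at 1008 to 1306 CPM. Over all libraries Krt6a ran from 140 to 1085 CPM, while Krt13 reached 208, Krtdap 0.199 and Sprr1b 0.270 CPM at most. Of the 3 squamous markers tested, 1 rose and 1 fell with HDM in F WT, and 0 were called in F KO. Fibroblast markers (7 genes, 2 called higher) summed to 48.4 and 603 CPM in the F WT HDM libraries and to 2.65 to 569 CPM in the others, so that their range was wide in both. Smooth muscle markers were 274 to 444 CPM in F WT HDM, above the 10.1 to 133 CPM of the other 14, with 0 of 3 called. That sum was nearly all Acta2, since Cnn1 reached 4.95 and Myh11 1.38 CPM at most. The median log2 fold change of the 3 was -0.60. Chondrocyte markers were 7.67 to 62.2 against 0.344 to 3.71 CPM, nearly all from Col2a1, with Acan at most 0.237 and Col9a1 at most 0.142 CPM. Leukocyte markers were 11.0 to 12.5 CPM in F WT HDM against 16.0 to 36.9, with Cd3e at 3 counts or fewer in every library, and endothelial markers were at most 1.85 CPM. The part of cell composition in the levels of the 10 factors was not tested. Several listed genes serve in more than 1 list, such as Trp63, Spdef, Agr2 and Krt18.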

How the data were processed

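RNA-seq of MTECs gave 16 libraries, 2 for each of 8 groups set by the labels. Values in the deposited table are whole read counts for each Ensembl gene, not normalized. The submitters' processing notes name Trimmomatic 0.36, STAR 2.5.2b, featureCounts, Subread 1.5.2, DESeq2 and GRCm38, and the strand setting and annotation release were not given in the sources used here. Of 49315 identifiers, 48970 were matched to GENCODE M21 for symbols, positions and exon lengths. Genes passing filterByExpr (15993) were fitted with 1 mean per group by edgeR's quasi-likelihood test on all 16 libraries with TMM scaling, which leaves 8 residual degrees of freedom. P-values were adjusted by Benjamini-Hochberg over all tested genes, with a threshold of 0.05. The test was not named in the methods read, so the one that fits counts was used.

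The members and lists were chosen with earlier results of these data known. Genes named were the 10 factors, Lman1, genes overlapping a factor, the 2 genes most like each factor by group means, and the 3 of each list with the smallest p in F WT with HDM. 1 of the marker lists is not reported here. A marker was called at the floor at 3 counts or fewer in every library. Alternatives were DESeq2, RLE, upper-quartile and library-total scaling, no filter on low counts, the compared libraries alone, the replicate number as a block, another pseudocount (0.25 for 1) and each library left out. Library totals were 21860698 to 43442188 counts, and Foxa2 held at least 100 counts in each library. The SE of edgeR values was derived from the log2 fold change and the F statistic of the test. That test estimates the spread over all groups of the fit and moderates it over genes. The SE is thus not the spread of the compared libraries alone. The scripts were tested on simulated data. R 4.3.3, edgeR 4.0.16, DESeq2 1.42.0, Python 3.11.15, numpy 2.4.6, pandas 2.3.3 and matplotlib 3.10.9 were used.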

Additional observations from a re-analysis of the deposited data

Results flagged for a closer look

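The HDM response differed between groups by an interaction test (edgeR's quasi-likelihood test, adjusted p under 0.05 over all tested genes) in 15 cases. Values are differences of log2 fold changes, and all 15 are above 0.

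For M minus F in WT these were Elf3 at 1.82 (adjusted p = 9.13e-05), Grhl1 at 1.80 (0.00192), Klf5 at 1.46 (0.00141), Sox2 at 1.23 (6.63e-05), Foxa1 at 1.08 (0.000229) and Grhl2 at 0.84 (0.00149). For M minus F in KO they were Sox2 at 0.64 (0.0203) and Foxa1 at 0.60 (0.0318).

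For KO minus WT in F they were Grhl1 at 1.62 (adjusted p = 0.00942), Elf3 at 1.31 (0.00251), Ehf at 1.05 (0.0499), Klf5 at 1.05 (0.0196), Grhl2 at 0.80 (0.00588), Sox2 at 0.73 (0.00573) and Foxa1 at 0.57 (0.0215). The F WT libraries enter the first and the third set.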

How the results depend on the processing

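No result reversed. Of the called log2 fold changes of the 10 factors, 337 recomputed values kept direction and side of the threshold under alternatives other than leave-outs and 6 lost the call, and with 1 library left out 207 kept both and 49 lost the call. Values not called crossed the threshold in 28 cases under the other alternatives and in 8 with 1 library left out. In the fit of the compared libraries alone, 6 factors were called for HDM in F KO and 9 for M minus F in HDM KO, but 8 in place of 9 for HDM in F WT and for KO minus WT in HDM F (Foxa2 lost, adjusted p = 0.0514 and 0.0624), and 6 in place of 7 for the response KO minus WT in F (Ehf lost). With no filter on low counts, 29397 genes were tested. There, 1 factor was called for M minus F in naive KO (859 of all genes) and 3 for KO minus WT in HDM M (1896). The response M minus F in KO had 4 (1977), and the response KO minus WT in M had 1 (668). DESeq2 called 1 for KO minus WT in HDM M. With 1 library left out, the response M minus F in KO had 0 to 5 factors called and the response KO minus WT in F 4 to 7. Levels moved by more than 1 SD in 15 cases and by less in 225, and correlations by more than 0.1 in 29 and by less in 61. The cause was not tested.

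The replicate numbers are shared across groups but nothing in the labels pairs the samples, and deviations of same-numbered libraries correlated from -0.164 to 0.483 over 12 comparisons. With the replicate block, 1 factor was called for KO minus WT in HDM M (0 without), 4 for HDM in F KO (3 without) and 4 for M minus F in HDM KO (5 without). For the response M minus F, 7 were called in WT (6 without) and 3 in KO (2 without). Calls over all 15993 tested genes moved too. In the same order they were 480 (0 without), 2150 (1664), 3270 (4050), 4429 (3866) and 1062 (569).

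Counts of genes over the whole table moved by more than 1.5 times in several comparisons. DESeq2 called 171 (edgeR 16) for M minus F in naive WT, 213 (30) in naive KO, 437 (0) for KO minus WT in HDM M, 1131 (569) for the response M minus F in KO, 2 (0) for HDM in M WT, and 1 (0) each for HDM in M KO and for KO minus WT in naive F and naive M. With no filter on low counts there were 2717 (1664) for HDM in F KO, 149 (0) in M WT, 705 (0) in M KO, 644 and 859 for M minus F in naive WT and KO, 135, 98 and 1896 (0 each) for KO minus WT in naive F, naive M and HDM M, and 1977 (569), 3029 (1798) and 668 (0) for the responses M minus F in KO and KO minus WT in F and in M. The compared libraries alone gave 2804 for HDM in F KO, 3916 (6657) for M minus F in HDM WT, 5 and 9 for M minus F in naive WT and KO, and 1 each for KO minus WT in naive F and HDM M. The replicate block gave 5 and 15 for M minus F in naive WT and KO, 480 for KO minus WT in HDM M and 1062 for the response M minus F in KO. With 1 library left out, the genes called numbered 386 to 962 for HDM in F KO, 4580 to 6161 (6887) in F WT, 1727 to 4510 (4669) for KO minus WT in HDM F, 1782 to 2342 (4050) and 4219 to 6046 (6657) for M minus F in HDM KO and HDM WT, 7 to 16 (30) and 5 to 12 (16) for M minus F in naive KO and naive WT, 0 to 20 (0) for HDM in M KO, 0 to 1 (0) for KO minus WT in naive M, and 2279 to 3795 (3866), 52 to 1148, 511 to 2370 and 0 to 4 (0) for the responses M minus F in WT and in KO and KO minus WT in F and in M. With 2 libraries a group, leaving 1 out assumes that the lone library varies like the others. Foxa2, a low gene, held 338 and 158 counts in the F WT HDM libraries.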
